A study of Mus musculus with 13 samples.

Results

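Complement is a blood and tissue defence cascade whose proteins are made mostly by the liver, but also locally by macrophages, fibroblasts and epithelial cells. The 8 complement genes described here, C3, C4b, C1ra, C1s1, Cfb, C2, C3ar1 and C5ar1, were chosen by name as components and receptors that can be made inside a tumor, and all 8 have values in every one of 13 mouse basal cell carcinomas (BCC) in a table of 21100 genes. In the classical pathway the proteases C1r and C1s are activated on C1q, and C1s then cleaves C4 and C2, which join into an enzyme that splits C3. In the alternative pathway factor B, encoded by Cfb, takes the place of C2 in the C3-splitting enzyme, and factor D, encoded by Cfd, activates factor B. The fragments C3a and C5a bind the receptors encoded by C3ar1 and C5ar1, which are well known on macrophages and neutrophils.

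The study compared 2 models of BCC in female mice by RNA sequencing of whole tumors matched in volume. GEM-BCC tumors (n = 9, from 7 mice) grew in the skin of Ptch1+/- K14-CreERT2 p53fl/fl mice after 3 intraperitoneal injections of 300 µg tamoxifen, which lets Cre driven by the keratin 14 promoter delete p53 in basal keratinocytes, and 4 Gy of X-ray. Tp-BCC tumors (n = 4, from 4 mice) grew under the skin of the flank of immunocompetent Ptch1+/-p53fl/fl mice, which carry no Cre, after inoculation of 2000000 BCC cells, and were all descended from a single GEM-BCC tumor passaged through mice. Both models thus carry the Ptch1 and p53 alleles, Tp-BCC stands for 1 tumor of origin, and the ages were not given in the sources used here. GEM2 shared a mouse with GEM3, and GEM7 with GEM8. Tumor cells and stroma were sequenced together, so fewer cells of a type and less RNA per cell cannot be told apart.

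Values are CPM, counts divided by the library total times a TMM factor (edgeR's correction for libraries that differ in composition) and scaled as the usual CPM, computed from expected counts, which are read counts that the authors estimated per gene. The TMM factors were 0.970 to 1.11 for GEM-BCC and 0.835 to 1.09 for Tp-BCC. Library totals ranged from 28075317 to 32629102 for GEM-BCC and from 15388027 to 17494912 for Tp-BCC. The labels put the GEM-BCC samples in batch 1 and the Tp-BCC samples in batch 2, so model and batch cannot be told apart. Keratinocyte and Hedgehog genes of the tumor epithelium (Krt14, Krt5, Krt17, Trp63, Gli1, Ptch1, Hhip) were high in every tumor, at 8973 to 21042 CPM in sum, and 0 of the 7 passed the test. The Tp-BCC libraries fell into 2 kinds by GC content of transcripts: deviations of log2 CPM from the gene mean correlated with GC content at a Spearman rho of -0.39 in TP1 and -0.47 in TP3, but of 0.59 in both TP2 and TP4 (14095 genes), with GEM-BCC between -0.31 and -0.15 except GEM1 at 0.36. Results are therefore also given for TP1 and TP3 alone and for TP2 and TP4 alone, each against the 9 GEM-BCC tumors.

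Of the 8 genes, 1 was lower in Tp-BCC at an adjusted p under 0.05, the protease gene C1s1, and 1 was higher, Cfb, the latter close to the threshold. For comparison, 8.35% of the 14390 genes tested were lower and 11.1% higher by the same test, edgeR's quasi-likelihood F test with Benjamini-Hochberg adjustment over all tested genes, so 1 of 8 in each direction is near the background. With the study's further threshold of an absolute log2 fold change above 2, 0 of the 8 were called in either direction, against 3.21% of all tested genes lower and 2.36% higher. The median log2 fold change of the 8 genes was 0.58, and that of all tested genes -0.03. The tumors' values are shown in the plot of log2 CPM for each gene.

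**Figure D1:**
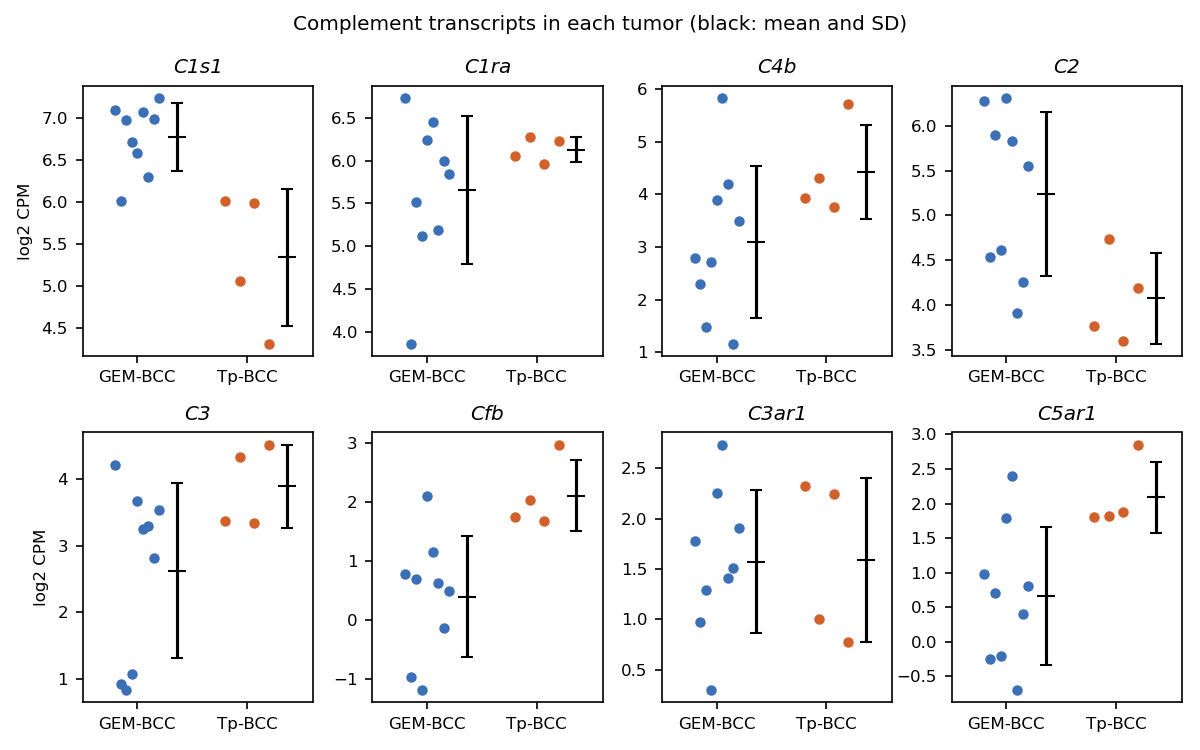
Log2 CPM (vertical axes, each panel with its own range) of 8 complement genes in 9 GEM-BCC (blue) and 4 Tp-BCC (orange) tumors, each point a tumor, with the mean and SD in black. The 4 Tp-BCC tumors lie below all GEM-BCC tumors for C1s1 on this TMM-scaled measure, which was not so by library total alone, and the models overlap for the other 7 genes.

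Per kilobase of the longest transcript, the proteases of the classical pathway led the levels in both models. In GEM-BCC the mean was 38.5 ± 9.80 CPM per kilobase for C1s1 (SD, n = 9), 19.4 ± 9.60 for C1ra and 16.9 ± 9.51 for C2, and C1s1 was above C1ra in 9 of 9 tumors. C1ra was above C2 in 6 of 9 tumors, so these neighbours in the order did not separate. Then came C4b at 2.55 ± 3.14, below C2 in 9 of 9 tumors. After it came C3 at 1.605 ± 1.11, C3ar1 at 0.750 ± 0.377, C5ar1 at 0.747 ± 0.593 and Cfb at 0.564 ± 0.419 CPM per kilobase. From C4b down, neighbours in the order overlapped. In Tp-BCC (n = 4) C1ra led at 23.5 ± 2.40, ahead of C1s1 at 15.4 ± 7.59 in 3 of 4 tumors, and C3ar1 was last at 0.766 ± 0.407, below Cfb in 4 of 4 tumors. C3, the protein on which all routes of the cascade meet and a main product of liver, was a low transcript here. The hepatocyte markers Alb, Apoa1 and Ahsg had too few counts to test. For Alb these were 0 to 1 across the GEM-BCC tumors, against 4 to 47 for Tp-BCC. Serpina1a, the 1 hepatocyte marker tested, leaned the other way but did not pass (log2 fold change -1.47, SE 0.83, adjusted p = 0.224). Its counts ran from 2.95 up to 101 among GEM-BCC tumors, with the Tp-BCC tumors between 3.19 and 8.12.

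C1s1 and C1ra encode the 2 proteases of the C1 complex, which in the complex are present in equal numbers. The genes are next neighbours on mouse chromosome 6, in a group that also holds C1rl, C1rb and C1s2 (order from RefSeq, GRCm38.p6). Their promoters are shown because C1s1 passed the test and C1ra did not. Each line gives the 250 bases before the RefSeq start in GRCm38.p6, with capitals marking matches to TTNNGNAA (C/EBP letters) and, in C1s1 only, to GGANNTTCC (NF-kB-type letters). The windows are chr6:124542360-124542609 on the minus strand for C1s1, taken at the more upstream of its 2 starts, and chr6:124512371-124512620 on the plus strand for C1ra.
C1s1: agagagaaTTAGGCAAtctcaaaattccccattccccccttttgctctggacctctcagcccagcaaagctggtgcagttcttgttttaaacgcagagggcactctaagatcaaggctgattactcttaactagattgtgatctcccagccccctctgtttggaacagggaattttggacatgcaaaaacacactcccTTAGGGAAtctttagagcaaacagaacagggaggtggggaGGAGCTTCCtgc
C1ra: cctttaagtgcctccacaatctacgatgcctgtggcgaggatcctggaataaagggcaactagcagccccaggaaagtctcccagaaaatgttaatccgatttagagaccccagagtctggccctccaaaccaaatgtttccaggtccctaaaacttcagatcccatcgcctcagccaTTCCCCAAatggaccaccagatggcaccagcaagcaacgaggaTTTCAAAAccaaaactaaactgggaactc
Both windows held 2 matches to the C/EBP letters, as 36.9% of the 32841 windows of this length held at least 1, on either strand. The NF-kB-type match of C1s1 began 12 bases before the start, and 3.59% of all windows held one. Neither window held TTCNNNGAA (GAS letters, in 7.02% of windows) or GAAANNGAA (ISRE-type letters, in 7.13%).

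C1s1 was measured at 64.4, 33.3, 63.8 and 19.8 CPM in TP1, TP2, TP3 and TP4, and at 64.6 to 151 CPM (median 126) in GEM-BCC. All 4 Tp-BCC tumors were below the GEM-BCC median and TP2 and TP4 below all 9 GEM-BCC tumors, while TP1 and TP3 lay about level with the lowest of them, GEM2. On the TMM scale TP1 and TP3 were just below GEM2, without overlap of the models, as for 4.45% of all tested genes in this direction and 5.5% in the other. By library total alone, an alternative added after the data were seen, TP1 and TP3 were above GEM2 (69.4 and 69.3 against 63.4 CPM), and the models overlapped. C1s1 fell, its log2 fold change being -1.32 (SE 0.32, adjusted p = 0.0104). The log2 fold change was -2.09 with TP2 and TP4 alone (adjusted p = 0.000615) and -0.82 with TP1 and TP3 alone, where the call was lost (adjusted p = 0.0888). With the GC trend of each tumor removed it was -1.18 (limma, adjusted p = 0.00221).

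C1ra did not pass the test. The Tp-BCC tumors had 66.5, 77.4, 62.0 and 74.7 CPM, all above the GEM-BCC median of 57.4 but inside the GEM-BCC range of 14.4 to 106 CPM. Its log2 fold change was 0.28 (SE 0.37, adjusted p = 0.621). The Tp-BCC tumors lay within 1.25-fold of each other, whereas the GEM-BCC tumors spanned 7.35-fold, from GEM2 to GEM1. GEM3, from the same mouse as GEM2, had 45.6 CPM.

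As a log2 ratio of CPM, in which the library scaling cancels apart from the prior count, C1s1 over C1ra was 0.35 to 2.16 (median 1.12) in GEM-BCC, and -0.05, -1.22, 0.04 and -1.91 in TP1 to TP4, without overlap. C1s1 was thus the higher of the 2 in every GEM-BCC tumor, about equal to C1ra in TP1 and TP3, and the lower in TP2 and TP4. This ratio and the other ratios below were chosen after the values were seen and are given as descriptions, with no test. The mean difference was -1.90, and it was -1.53 to -2.18 over the 13 choices of 1 tumor to leave out. C1ra shares 34.5% of its 100-base words with its near-identical copy C1rb, and C1s1 shares 7.90% with C1s2. Counts of C1s1 and C1s2 were fractional in 9 of 9 GEM-BCC and 4 of 4 Tp-BCC tumors, with sums whole to within 0.011. The authors' counting thus split reads between these 2 copies. The same held for C1ra and C1rb in 9 of 9 GEM-BCC tumors, while in Tp-BCC both were whole in 1 of 4 tumors. C1rb had 0 to 33.3 counts in all tumors, and C1s2 was at 5.72 ± 2.64 CPM in GEM-BCC and 2.44 ± 0.909 in Tp-BCC (log2 fold change -1.22, SE 0.43, adjusted p = 0.0584). With copies summed, an alternative added after the data were seen, the fold changes were -1.32 for C1s1 and 0.27 for C1ra.

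**Figure D2:**
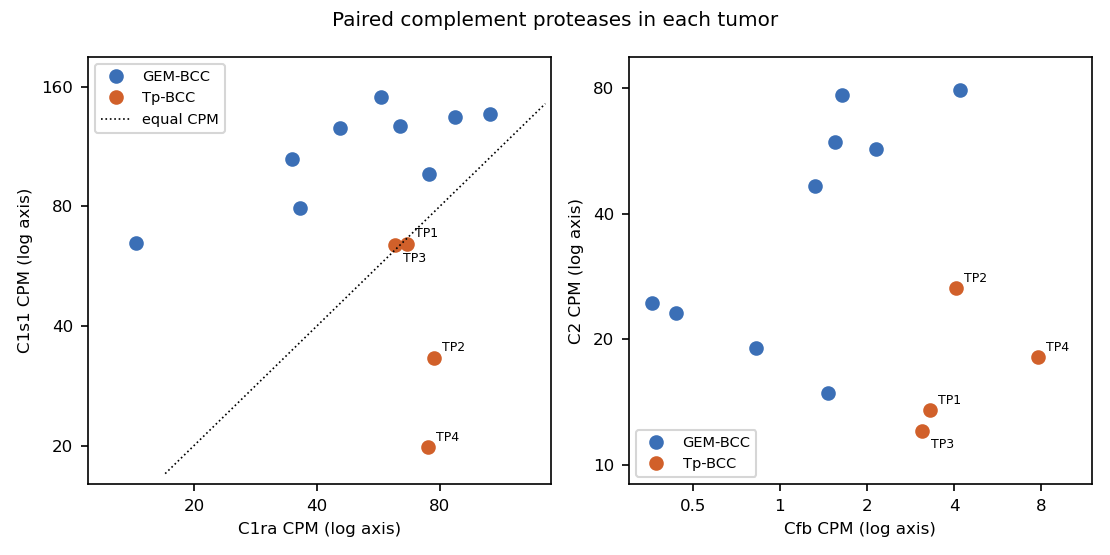
CPM of C1s1 against C1ra (left) and of C2 against Cfb (right) on log axes, each point a tumor (GEM-BCC blue, Tp-BCC orange and labelled), with a dotted line of equal CPM at left. GEM-BCC tumors all lie above the line of equality, TP1 and TP3 lie close to it and TP2 and TP4 below it. At right the models overlap on each axis, but the ratio of C2 to Cfb is lower in every Tp-BCC tumor.

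C4b encodes C4, the first substrate of C1s. It was at 15.1, 19.8, 13.5 and 52.5 CPM in TP1 to TP4 and at 2.17 to 56.4 CPM (median 6.84) in GEM-BCC. All 4 Tp-BCC tumors were above the GEM-BCC median, but a single GEM-BCC tumor, GEM6, was above them all. The log2 fold change of 0.87 (SE 0.69) missed the threshold (adjusted p = 0.387), and it rested on single tumors: it was 0.17 without TP4 and 1.58 without GEM6 (adjusted p = 0.0533). GEM-BCC tumors spanned 26.0-fold, the widest range of the 8 genes. C4b shares 16.5% of its 100-base words with C4a, which had 13.01 to 69.7 counts in GEM-BCC and no value in Tp-BCC. C4b counts were fractional in 9 of 9 GEM-BCC tumors, where the sum with C4a was whole to within 0.011, and whole in 4 of 4 Tp-BCC tumors, so C4b and C4a shared reads in GEM-BCC. With C4a added, the log2 fold change of C4b was 0.71 (adjusted p = 0.445). How genes without a value arose was not given in the sources used here.

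C2 encodes the protease that joins C4 fragments in the classical C3-splitting enzyme. Its levels were 13.5, 26.5, 12.03 and 18.1 CPM in TP1 to TP4 and 14.9 to 79.1 CPM (median 46.7) in GEM-BCC. All 4 Tp-BCC tumors were below the GEM-BCC median, and TP1 and TP3 below every GEM-BCC tumor, GEM7 being the lowest. By library total alone TP4 was below GEM7 too (15.1 against 15.8 CPM). The log2 fold change was -1.35 (SE 0.46), and it just missed the threshold (adjusted p = 0.0514). It passed in 4 of the 13 fits without 1 tumor and in 4 of 14 other alternatives, the DESeq2 Wald test among them (adjusted p = 0.0111). Unlike C1s1, C2 was lower in TP1 and TP3 (log2 fold change -1.81, adjusted p = 0.0928) than in TP2 and TP4 (-0.99, adjusted p = 0.198).

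Cfb encodes factor B, the counterpart of C2 in the alternative pathway, and is known to be induced by interferon and inflammatory cytokines. It was the lowest transcript per kilobase in GEM-BCC, at 0.363 to 4.20 CPM (median 1.46), that is 11 to 147 counts. In TP1 to TP4 it was at 3.30, 4.05, 3.11 and 7.78 CPM, or 52 to 109 counts, and among the GEM-BCC tumors only GEM5 reached that range. Cfb rose 2.92-fold, its log2 fold change being 1.55 (SE 0.52, adjusted p = 0.0475). The call was lost in 11 of 13 fits without 1 tumor, most of all without TP4 (1.11, adjusted p = 0.226), and with TP1 and TP3 alone (1.03, adjusted p = 0.354), but held with TP2 and TP4 alone (1.93, adjusted p = 0.0279).

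C2 and Cfb lie side by side on chromosome 17, with only a microRNA gene listed between them, in the stretch of the major histocompatibility complex that also holds C4b. The log2 ratio of C2 over Cfb was 3.28 to 5.81 (median 5.06) in GEM-BCC and 2.01, 2.69, 1.93 and 1.21 in TP1 to TP4. The models did not overlap, the mean difference was -2.89, and the transcripts share 0 of their 100-base words. The log2 ratio of C2 over C4b ranged from -0.29 to 4.42 among GEM-BCC tumors and overlapped with Tp-BCC, at -1.53 to 0.42. Of the other genes tested between C4b and C2, Cyp21a1, a steroid hydroxylase gene, was lower (log2 fold change -2.16, SE 0.66, adjusted p = 0.0331) and Dxo, an RNA decapping enzyme gene, higher (0.65, SE 0.22, adjusted p = 0.0484), while Stk19 (0.00), Skiv2l (0.39) and Nelfe (0.06) did not pass.

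C3 had 10.2, 19.995, 10.1 and 22.7 CPM in TP1 to TP4 and 1.71 to 18.4 CPM (median 9.39) in GEM-BCC. GEM2, GEM3 and GEM4 had 1.82, 1.71 and 2.04 CPM, and the other GEM-BCC tumors at least 6.96. All 4 Tp-BCC tumors were above the GEM-BCC median, and TP2 and TP4 level with or above the highest of them, GEM1. On the TMM scale both were above GEM1, and by library total alone TP4 was (18.96 against 17.9 CPM) but TP2, at 17.8 CPM, was not. The log2 fold change was 0.93 (SE 0.55, adjusted p = 0.244), 1.38 with TP2 and TP4 alone (adjusted p = 0.119) and 0.30 with TP1 and TP3 alone (adjusted p = 0.828). The C3 promoter is shown as that of the cascade's central gene, the 250 bases before the start at chr17:57228137-57228386 on the minus strand of GRCm38.p6, with the C/EBP letters in capitals.
C3: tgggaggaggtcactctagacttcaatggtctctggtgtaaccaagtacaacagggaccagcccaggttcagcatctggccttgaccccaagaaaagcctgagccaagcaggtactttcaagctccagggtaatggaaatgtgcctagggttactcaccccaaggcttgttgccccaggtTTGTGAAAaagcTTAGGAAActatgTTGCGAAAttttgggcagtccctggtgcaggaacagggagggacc
It held 3 such matches, beginning 70, 58 and 45 bases before the start, and none of the other 3 motifs. RefSeq promoters were matched for 5 of the 8 genes. The windows of C3ar1 and C5ar1 held 0 and 1 matches to the C/EBP letters, and that of C5ar1 held 1 to the ISRE-type letters.

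Neither receptor gene passed the test. C3ar1 was at 4.95, 1.93, 4.67 and 1.64 CPM in TP1 to TP4 and at 1.15 to 6.58 CPM (median 2.78) in GEM-BCC. Its log2 fold change was 0.03 (SE 0.45), adjusted p = 0.971. Its Tp-BCC tumors split with their GC trend, TP1 and TP3 above the GEM-BCC median and TP2 and TP4 below it. The transcript has the lowest GC content of the 8 genes, 43.0%, and with the GC trend removed the SD of log2 CPM among Tp-BCC tumors was 0.21 in place of 0.81. The same correction lowered this SD for 5 of the 8 genes and raised it for 3, among them C5ar1, from 0.51 to 0.88, C3, from 0.62 to 0.72, and C1ra, from 0.15 to 0.25. The sign of the log2 fold change of C3ar1 turned with the choice of tumors, from 0.57 with TP1 and TP3 alone to -0.85 with TP2 and TP4 alone.

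C5ar1 was at 3.41, 3.47, 3.59 and 7.14 CPM in TP1 to TP4, all above the GEM-BCC median of 1.55, and at 0.541 to 5.20 CPM in GEM-BCC. TP4 was the highest of all tumors. The log2 fold change was 1.21 (SE 0.52, adjusted p = 0.111), and it passed with the GC trend removed (1.65, limma, adjusted p = 0.0345) and without GEM6 (1.56, adjusted p = 0.0315); without TP4 it was 0.83 (adjusted p = 0.374). The log2 ratio of C3ar1 over C5ar1 was 0.33 to 2.11 in GEM-BCC and 0.52, -0.82, 0.37 and -2.07 in TP1 to TP4, with TP1 and TP3 inside the GEM-BCC range. Macrophage markers, known to be carried by the cells that bear these receptors, summed to 106 to 350 CPM among GEM-BCC tumors and to 189 to 308 CPM among Tp-BCC tumors, which overlap. Of 11 markers 1 rose, Cd68 (log2 fold change 1.31, SE 0.39, adjusted p = 0.0292), while Adgre1 (-0.14) and Csf1r (0.29) did not pass. Of 4 tested neutrophil markers, 2 were lower in Tp-BCC, S100a8 and S100a9. The other 2 did not pass, Csf3r (log2 fold change 0.13, adjusted p = 0.867) and Camp (-2.95, adjusted p = 0.0958). Beside these counts of markers, 11.1% of all tested genes were higher and 8.35% lower. Ly6g had only 0 to 1 counts in GEM-BCC and no value in Tp-BCC. The part of these cells in the levels of the receptors was not tested.

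**Figure D3:**
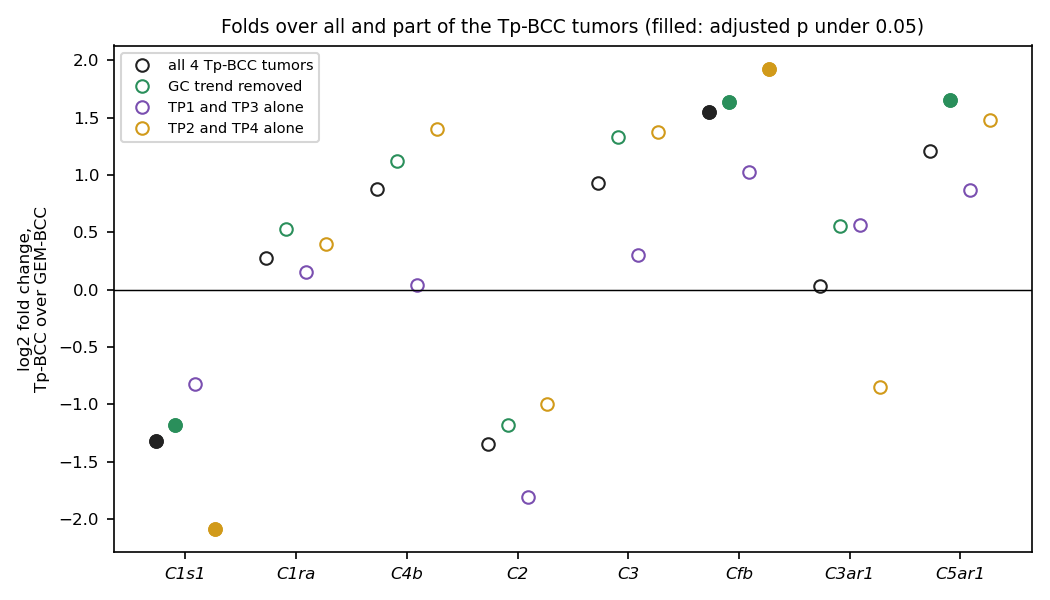
Log2 fold change of Tp-BCC over GEM-BCC (vertical axis) for 8 complement genes with all 4 Tp-BCC tumors, with the GC trend removed, and with TP1 and TP3 alone or TP2 and TP4 alone against the 9 GEM-BCC tumors, filled where the adjusted p was under 0.05. C1s1 and C2 were below 0 and C1ra, C4b, C3, Cfb and C5ar1 above 0 in all 4 fits, and C3ar1 lay on both sides.

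Across the 9 GEM-BCC tumors the 8 genes varied together to differing degrees. All 28 pairs had a positive Pearson r of log2 CPM, from 0.02 for C4b with C1s1 to 0.84 for C3ar1 with C5ar1, with a median of 0.60. These are descriptions over 9 tumors of 7 mice, whose points share a library. With the GC trend removed 27 of the 28 were positive, C4b with C1s1 being at -0.03, and without the 2 tumors farthest from the median of the second gene 27 were, C1s1 with Cfb turning from 0.31 to -0.32. C3ar1 had an r of 0.95 with the mean of the 11 macrophage markers (Spearman rho 0.88), and of 0.82 without the 2 tumors farthest from the median of the markers. For Cfb these values were 0.87, 0.87 and 0.93, and for C5ar1 0.83, 0.83 and 0.74. C1s1 was at 0.43, 0.45 and 0.50. Markers of other cells gave values of like size: with the mean of 10 fibroblast markers r was 0.79 for C3ar1, 0.80 for C5ar1 and 0.81 for Cfb, or 0.64, 0.83 and 0.42 without 2 tumors, and Cfb had an r of 0.81 with 5 mast cell markers and of 0.80 with the 1 tested T cell marker. For C1s1 r was 0.69 with 6 endothelial, 0.63 with 3 fat cell and 0.23 with the fibroblast markers. These were 0.75, 0.59 and 0.62 without 2 tumors, and 0.26, 0.44 and 0.03 with means per mouse. The r of C1ra with C1s1 was 0.78 (Spearman rho 0.67), and 0.62 with means per mouse. It was 0.30 without the 2 tumors farthest from the median of C1s1. Leaving out such tumors also narrows the range, so this drop alone cannot show that the r rests on them. With the mean of 15 interferon response genes r was 0.70 for C4b (Spearman rho 0.70) and 0.55 for Cfb (Spearman rho 0.55), but 0.63 and 0.75 without 2 tumors, so the order of the 2 genes turned. Of those 15 genes 1 rose in Tp-BCC, Usp18, and 1 fell, Irf9, against 11.1% and 8.35% of all tested genes.

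**Figure D4:**
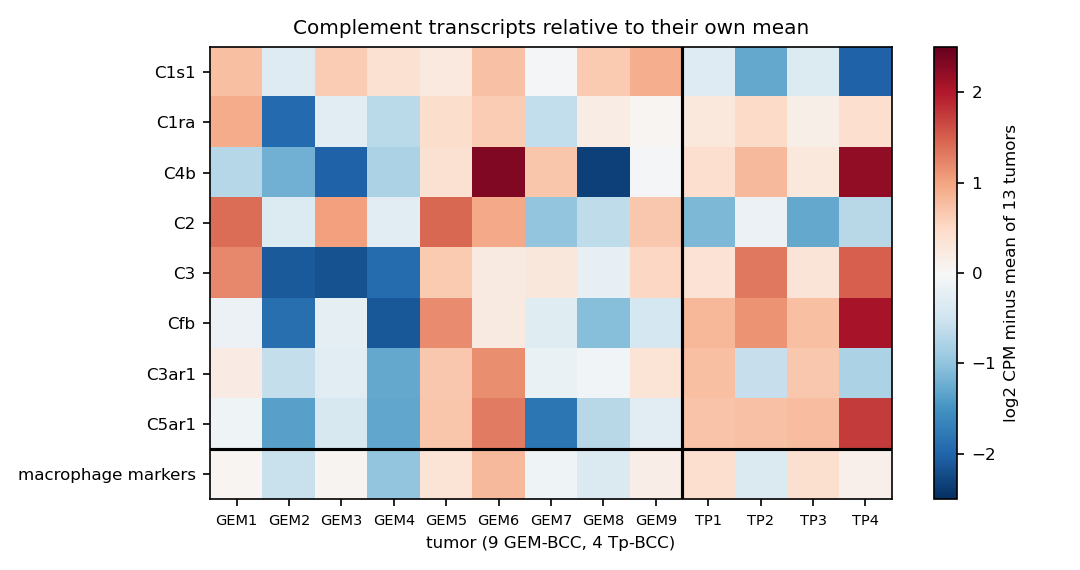
Log2 CPM of 8 complement genes minus the gene's mean over 13 tumors (colour, red above and blue below the mean), with the mean of 11 macrophage markers in the last row; the black line divides 9 GEM-BCC from 4 Tp-BCC tumors. C4b is highest in GEM6 and TP4, C3 is low in GEM2, GEM3 and GEM4, and C1s1 is lowest in TP4.

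The genes most like each member across GEM-BCC tumors, among 10227 tested genes of sufficient level, were Serping1, Dpagt1 and Lcp1 for C3ar1 (r = 0.94, 0.93 and 0.93), Ly6a, Lcp1 and Cdh13 for Cfb (r = 0.93, 0.93 and 0.91), and Parp10, Irf9 and Cpt2 for C4b (r = 0.90, 0.89 and 0.89). For C1s1 they were Fam118a, Acox3 and Rhoj, for C1ra Fzd1, Rmnd5b and Gna14, for C2 Dnm1, Laptm4a and Fmod, for C3 D2hgdh, Adgrd1 and Fblim1, and for C5ar1 Dpep1, Ccdc6 and Kank2, with r between 0.87 and 0.95. Of these 23 genes, 3 fell and 1 rose in Tp-BCC, where 8.35% of all tested genes fell and 11.1% rose. Gna14, a G protein subunit gene, had a log2 fold change of -3.26 (adjusted p = 6.02e-05), Fam118a of -1.43 (adjusted p = 0.00477), Irf9, a part of the interferon-activated transcription factor, of -1.16 (adjusted p = 0.00278) and Dnm1, a dynamin gene, of 1.07 (adjusted p = 0.00845).

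The rest of the cascade was read from a list of 56 complement genes that includes the 8, of which 35 were tested, 10 had too few counts, 10 had no value in Tp-BCC and 1 had none in any tumor. Of the 27 tested genes other than the 8, 3 rose and 2 fell, shares near the 11.1% and 8.35% of all tested genes, with a median log2 fold change of 0.10. Cfd, the gene of factor D and also a product of fat cells, rose most: GEM-BCC tumors held 0 to 4 counts and Tp-BCC tumors 49 to 2043 (adjusted p = 1.26e-05), the highest in TP2. The fat cell markers Adipoq (1 to 60 counts against 22 to 305), Cidec (0 to 2 and 18 to 360) and Fabp4 rose as well, 3 of 3 tested, and their summed level was 0.314 to 3.10 CPM in the GEM-BCC tumors, against 10.2 to 70.7 for Tp-BCC. With the 4 listed markers that had too few counts to test added, it was 0.400 to 3.26 against 11.01 to 101 CPM. The part of fat cells in the level of Cfd was not tested. Cfp, the gene of properdin, which steadies the alternative enzyme, was at a log2 fold change of 0.83 with an SE of 0.32 (adjusted p = 0.082).

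**Figure D5:**
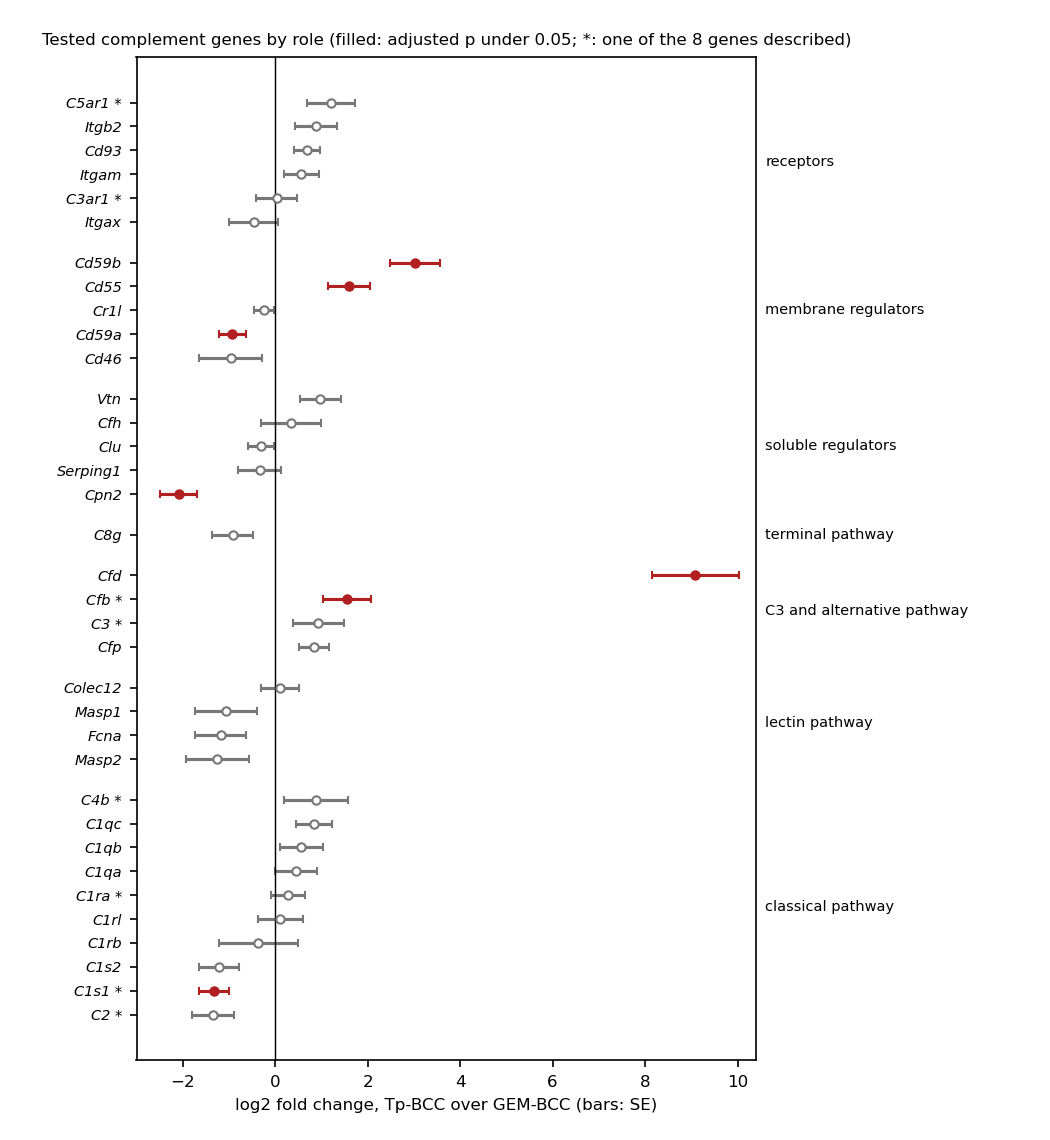
Log2 fold change of Tp-BCC over GEM-BCC (horizontal axis, bars for SE) of the 35 tested complement genes, grouped by role, filled red where the adjusted p was under 0.05 and with a star for the 8 genes described. Cfd stands far to the right at a value that rests on 0 to 4 counts in GEM-BCC. The 4 genes of C3 and the alternative pathway all lie above 0, but only 2 of them passed. Of all 14390 tested genes, 6990 lay above 0.

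Among the genes around C1s1, the C1q subunit genes C1qa, C1qb and C1qc, which macrophages are known to make, had log2 fold changes of 0.45 (SE 0.46, adjusted p = 0.506), 0.57 (SE 0.46, adjusted p = 0.406) and 0.85 (SE 0.39, adjusted p = 0.135). Serping1, the gene of the inhibitor of C1r and C1s, was at 59.9 ± 43.8 CPM in GEM-BCC and 47.5 ± 12.98 in Tp-BCC (log2 fold change -0.34, SE 0.46, adjusted p = 0.634). Of 10 tested genes of the classical pathway, C1s1 passed and fell, a share near the 8.35% of all tested genes, while C2 and C1s2 had folds of like size and just missed the threshold. In the lectin pathway, which cleaves C4 and C2 through other proteases, 0 of 4 passed: Colec12 was at 108 ± 27.2 and 116 ± 92.9 CPM, and Masp1 at 33.4 ± 27.0 and 15.9 ± 4.45. Of the terminal pathway only C8g had counts enough to test (log2 fold change -0.92, SE 0.44, adjusted p = 0.154).

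Of genes that hold the cascade back, 2 of 5 tested membrane regulators rose and 1 fell, and 1 of 5 soluble regulators fell. Among all tested genes 11.1% were higher and 8.35% lower. Of the membrane regulators, Cd55, whose product takes apart the C3-splitting enzymes, rose from 7.77 ± 3.25 to 23.5 ± 18.8 CPM (log2 fold change 1.596, SE 0.45, adjusted p = 0.0225). Its Tp-BCC values ran from 7.14 to 43.0 CPM, and its GEM-BCC values from 3.86 to 13.7 CPM (median 7.89). The models thus overlapped for Cd55: TP2 and TP4 lay below the GEM-BCC median, and TP1 and TP3 above every GEM-BCC tumor. The rise of Cd55 thus came from TP1 and TP3 alone. This split is that of the GC trend, and no fold with that trend removed is given for Cd55. Cd59a, whose product blocks the membrane pore, fell from 22.6 ± 6.80 to 11.9 ± 3.52 CPM (-0.93, SE 0.29, adjusted p = 0.0338), while its copy Cd59b rose from 0 to 7 counts in GEM-BCC to 10.2 to 17.7 in Tp-BCC (adjusted p = 0.00152). Counts of both copies were whole in 9 of 9 GEM-BCC tumors and fractional in 4 of 4 Tp-BCC tumors, where their sum was whole to within 0.011, so reads were divided between the copies in Tp-BCC, and the part of this in their folds was not tested. Cr1l was at 39.0 ± 9.02 and 32.9 ± 1.61 CPM (adjusted p = 0.449). Of 5 tested soluble regulators Cpn2, a subunit of the carboxypeptidase that inactivates C3a and C5a, fell from 5.19 ± 2.00 to 1.22 ± 0.390 CPM (-2.09, SE 0.41, adjusted p = 0.00276), and Clu was at 71.97 ± 27.7 and 58.3 ± 12.4 CPM (adjusted p = 0.474). Of 6 tested receptor genes 0 passed. Cd93 had the highest level in both models (log2 fold change 0.69, SE 0.29, adjusted p = 0.107), followed by Itgax in GEM-BCC, at a mean of 5.24 CPM (-0.46, SE 0.53, adjusted p = 0.564), and by Itgb2 in Tp-BCC, at 7.14 CPM (0.89, SE 0.45, adjusted p = 0.175).

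Lists of genes that induce or accompany complement production were read in the same way. Of 8 tested acute phase and NF-kB target genes, Hp rose and Lcn2 and Tnfaip3 fell, and of 11 genes of interferon and interleukin-6 signalling, among them Stat3, Jak1 and Ifngr1, 0 passed. Fibroblast markers, a known source of C1r and C1s, were split, with 3 of 10 higher (Pdgfra, Pdgfrb and Pi16) and 2 lower (Col1a1 and Dpt). Endothelial markers were higher for 4 of 6. For comparison with the counts of each list, 11.1% of all tested genes were higher and 8.35% lower. Of the mast cell, skeletal muscle, T cell and hepatocyte markers tested, 0 of 5, 0 of 2, 0 of 1 and 0 of 1 passed, although Acta1 of skeletal muscle, with too few counts to test, ranged from 3 to 1113 counts in Tp-BCC. The mean log2 CPM of the 2 tested muscle markers, relative to the mean of all tumors, was 3.04 in TP4. It was -0.73, 0.02 and -0.67 in TP1 to TP3, and -1.24 to 1.10 in GEM-BCC. Of the Tp-BCC tumors, TP4 also had the lowest C1s1 and the highest C3, C4b, Cfb and C5ar1. The part of muscle and of the other cells in the levels of these genes and of C1ra was not tested.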

How the data were processed

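Poly(A) RNA of 13 tumors was sequenced, with 1 library per tumor. The authors aligned reads with Bowtie2 2.3.4.3 to transcripts of GRCm39 and counted them with RSEM 1.3.1, and the deposited values are expected counts per gene, not normalized, in which ambiguous reads are shared out among genes. The counts were rounded here. Genes lacking a value in any tumor were dropped, leaving 16687, and the 14390 that reached 10 counts in 4 or more tumors were tested. Models were compared in R 4.3.3 with edgeR 4.0.16 (TMM factors, quasi-likelihood F test, robust dispersions, 2-sided, Benjamini-Hochberg adjustment over all tested genes), with a script tested on simulated data. An SE is the size of the log2 fold change over the square root of F, CPM used library totals times TMM factors, and log2 CPM a prior count of 2. The GC trend (lowess, span 0.3, GENCODE vM21 transcripts) was removed per tumor and limma 3.58.1 applied.

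The 8 genes, the lists and the rule for named genes were set with earlier results of these data known. Named are the 8 genes, listed complement genes that passed, the 2 best expressed of each role (mean over the 13 tumors), near-identical copies, and per gene the 3 with the highest r over GEM-BCC tumors (mean log2 CPM of at least 3), plus Cfp, C1rl, Itgax and genes between C4b and C2, chosen after their values were seen. Alternatives were DESeq2 1.42.0 (size factors, Wald test), library size, other filters, missing values set to 0, dispersions that are not robust, an exact permutation test, sums per mouse, a replicate block, GC correction and leaving out tumors. The labels do not say that tumor numbers pair the models. p-values measure the spread between these tumors, and counting precision is set by the depths given. 1 gene of the marker lists is not reported here and was left out of its list.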

Additional observations from a re-analysis of the deposited data

Results flagged for a closer look

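C5ar1 in TP4, at a log2 CPM of 2.85, stood apart from the other 3 Tp-BCC tumors, which lay between 1.80 and 1.88. The log2 ratio of C3ar1 over C5ar1 in GEM7, at 2.11, stood apart from the other 8 GEM-BCC tumors, the next of which was GEM2 at 1.23. Both were found by a gap test on 24 sets of values (8 genes and 4 ratios in 2 models), of which chance alone would mark about 1 in 20.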

How the results depend on the processing

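C1s1 kept its direction in all alternatives and its call in the 13 fits without 1 tumor (log2 fold change -1.54 to -1.10) and in 12 of 14 others; it lost the call in the replicate block (-1.35, adjusted p = 0.185) and with TP1 and TP3 alone (-0.82). Cfb lost its call with DESeq2 size factors (1.53), library size (1.40), a stricter filter (1.53), no filter (1.53), the exact permutation test (1.72), sums per mouse (1.43), the replicate block (2.34) and TP1 and TP3 alone (1.03), and spanned 1.11 to 1.89 without 1 tumor. C2 gained a call with library size (-1.45), no filter (-1.36), the DESeq2 Wald test (-1.37) and sums per mouse (-1.48), and spanned -1.65 to -1.20 without 1 tumor. C5ar1 gained one with the GC trend removed (1.65), and spanned 0.83 to 1.56. C3ar1 turned negative with sums per mouse (-0.062) and TP2 and TP4 alone (-0.85), and spanned -0.23 to 0.23 without 1 tumor.

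Of the 8 genes, 1 passed with DESeq2 size factors, the stricter filter and the exact permutation test, 0 with the replicate block and with TP1 and TP3 alone, 3 with the DESeq2 Wald test and with the GC trend removed, and 1 to 2 without 1 tumor. Of the complement list, 4 passed with the stricter filter and the permutation test, 1 with the replicate block, 2 with TP1 and TP3 alone, 9 with the Wald test and with the GC trend removed, and 3 to 8 without 1 tumor, against 7. Of all genes, 178 passed with the block, 1484 with TP1 and TP3 alone, 6119 with TP2 and TP4 alone, 3743 with the Wald test, 4136 with the GC trend removed and 1545 to 3020 without 1 tumor, against 2792. Tumors of the same number did not deviate together (r -0.38 to -0.10 over 4 numbers), so the paired fit shares only a number; apart from the pairs of tumors named for each gene, the cause was not tested. C5ar1, Cfb and C3ar1 rest on 11 to 220 counts per tumor, which limits their precision.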
